A study of Homo sapiens with 12 samples.

Results

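The zinc finger genes of chromosome 19 are the protein-coding genes whose symbol is ZNF followed by a number and at most 1 letter, which the deposited table places on chromosome 19, and which had at least 10 counts in at least 3 of the 12 libraries. Of the 58302 genes deposited, 246 carried such a symbol and position, and 227 of these met the count rule and are called members here. The members were thus chosen by their counts. The rule was met by libraries of both lines for 116 members, by libraries of U251 alone for 106, and by libraries of U87 alone for 5. Of the 19 genes left out, 15 had no library with 10 counts and 4 had 1 or 2 such libraries. Just outside the rule ZNF296 had 2 such libraries and 64 counts in all 12, and just inside it ZNF497 had 3 such libraries and 69 counts.

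The study measured polyadenylated RNA of the established human glioma cell lines U251 and U87, in 4 groups of 3 libraries, all labelled day 9. U251 and U87 controls were kept in culture medium, and a solvent control is not stated. The treated U251 group received artesunate at 180 µM and the treated U87 group artesunate at 24.08 µM, for 24 h by the extraction text, which itself writes artemisinin. Dose and line therefore cannot be told apart where the responses of the lines differ. The labels do not say that replicates were separate cultures, so the p-values measure the spread between these libraries, which may be technical. Each line is a single cell line. In such bulk RNA fewer cells with a transcript and less transcript per cell cannot be told apart.

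The libraries held between 13631985 and 17314284 counts, and the lowest correlation of log2 CPM (counts scaled to a common library size) between libraries of a group was 0.972. The labelled glioma origin was set against 10 astrocyte or glioma markers, whose summed level was 5555 to 7456 CPM in U251 and 5750 to 7553 CPM in U87, most of it VIM. GFAP was 67.2 CPM in U251 controls and 1.01 in U87 controls, SOX2 was 249 CPM in U251 controls and had no count in U87, and AQP4 had no count in either line. S100B, NES and CD44 were also higher in U251 controls. The reverse held for OLIG2 (0.146 CPM in U251 controls and 3.16 in U87 controls), VIM (4608 and 5891) and EGFR (274 and 325). SLC1A3 was alike in the 2 lines, at 60.7 and 61.1 CPM. Of 3 leukocyte or microglia markers AIF1 had no count in any group and PTPRC at most 0.173 CPM, while CD68 was 1.53 CPM in U251 controls and 74.4 in U87 controls. The summed leukocyte list was 0.313 to 2.68 CPM in U251 controls and 54.6 to 92.3 in U87 controls, and its part in the differences between the lines was not tested.

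Zinc finger proteins of this kind bind DNA through tandem C2H2 fingers, and most of the chromosome 19 genes also encode a KRAB domain, which recruits the corepressor TRIM28. TRIM28 in turn brings the methyltransferase SETDB1, which places the repressive mark trimethylated histone H3 lysine 9, often on transposable elements. The genes arose largely by tandem duplication and lie in clusters, many of which carry that same mark over their own coding exons. An amino-acid pattern of the KRAB box matched the translated coding sequence of 189 members and not that of 38. The members encoded between 0 and 31 fingers by the pattern used, with a median of 12.

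Promoters of the members held more CpG dinucleotides than the median promoter and fewer than those of ZNF genes on other chromosomes. RefSeq promoters (GRCh38.p14, 250 bases before to 50 after the start) were matched to 203 members, with a median of 20 CpG and 60% GC in these 300 bases, against 14 CpG and 58.3% GC over 27305 promoters and 24 CpG and 62.7% GC over 210 promoters of ZNF genes elsewhere. The 4 sequences shown are the 250 bases before the start, 5′ to 3′ on the gene's strand, with each CpG in capitals. ZNF91 (chr19:23395472-23395721, minus strand) and ZNF146 (chr19:36214856-36215105, plus strand) are shown because both were well expressed in U251 and only ZNF146 was so in U87. ZNF20 (chr19:12140351-12140600, minus strand) and ZNF865 (chr19:55605397-55605646, plus strand) are shown because they had the largest rise and the largest fall among the named members of U87 after artesunate.
ZNF91: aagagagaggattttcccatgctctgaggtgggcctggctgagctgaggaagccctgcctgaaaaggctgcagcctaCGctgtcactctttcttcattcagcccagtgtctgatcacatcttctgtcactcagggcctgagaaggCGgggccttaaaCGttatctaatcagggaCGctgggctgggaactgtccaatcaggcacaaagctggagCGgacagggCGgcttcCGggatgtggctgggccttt
ZNF146: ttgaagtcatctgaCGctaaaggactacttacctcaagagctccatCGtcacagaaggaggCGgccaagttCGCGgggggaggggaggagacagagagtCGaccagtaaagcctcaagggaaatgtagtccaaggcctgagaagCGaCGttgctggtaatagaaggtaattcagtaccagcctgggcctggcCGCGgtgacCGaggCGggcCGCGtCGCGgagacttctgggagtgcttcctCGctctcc
ZNF20: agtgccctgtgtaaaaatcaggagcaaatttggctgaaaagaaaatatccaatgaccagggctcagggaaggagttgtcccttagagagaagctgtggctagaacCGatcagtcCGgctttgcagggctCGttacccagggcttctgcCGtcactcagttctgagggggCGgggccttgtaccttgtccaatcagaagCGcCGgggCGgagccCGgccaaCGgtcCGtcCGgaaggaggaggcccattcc
ZNF865: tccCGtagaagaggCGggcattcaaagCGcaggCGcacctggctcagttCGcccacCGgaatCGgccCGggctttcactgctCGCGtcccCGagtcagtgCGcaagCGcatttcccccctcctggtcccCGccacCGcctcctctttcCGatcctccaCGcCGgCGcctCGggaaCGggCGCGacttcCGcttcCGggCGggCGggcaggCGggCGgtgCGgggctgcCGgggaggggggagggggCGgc
The shown stretches hold 7 CpG for ZNF91, 17 for ZNF146, 12 for ZNF20 and 32 for ZNF865. Of 6 short motifs searched on both strands, AAGATGGCG was in 3.94% of the members' promoters and 1.85% of all promoters. GCGCATGCG was in 2.96% and 2.10% (5.24% for ZNF genes elsewhere), TTTCGCGC in 1.48% and 0.546%, and TCTCGCGAG in 0.985% and 0.721%. TGATGNAAT was in 0.985% and 1.02%, and CACGTG in 3.94% and 7.43%. No more than 8 member promoters held any of these motifs, and a match of letters describes the sequence alone.

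Untreated U251 cells expressed nearly the whole family, while untreated U87 cells had no or almost no reads for many of its genes. This description does not use the count rule and was made over all 246 genes of the name pattern, with a gene counted as expressed at 30 or more counts summed over the 3 control libraries and as near zero at 3 or fewer. By this measure 222 genes were expressed in U251 controls, 121 in U87 controls and 115 in both. Of the 222 genes expressed in U251, 96 (43.2%) were near zero in U87, 82 of them with no count at all. In the other direction 4 of the 121 genes expressed in U87 (3.31%) were near zero in U251. Among ZNF genes on other chromosomes 15 of 220 (6.82%) were near zero in U87 by the same measure, and among the other protein-coding genes of chromosome 19 20 of 672 (2.98%) were. Over all protein-coding genes the shares were 443 of 12523 (3.54%) in this direction and 3.62% in the reverse. These shares are descriptions with no test, and the genes were proposed for study with such results known.

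**Figure D1:**
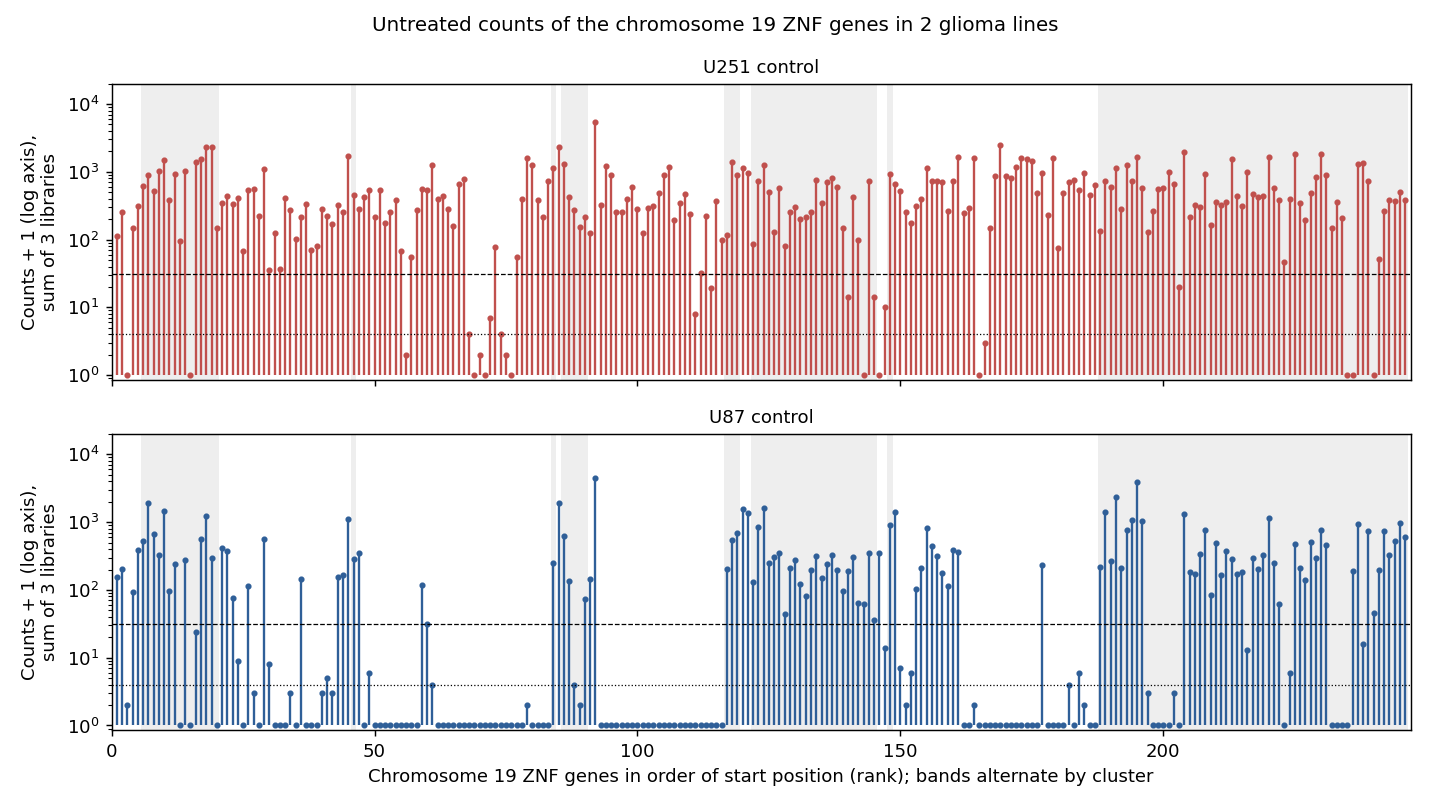
Counts plus 1, summed over 3 control libraries, of the 246 chromosome 19 ZNF genes in order of position (rank on the x axis, log y axis), in U251 above and U87 below; the dotted line marks 3 counts, the dashed line 30 counts, and shaded bands alternate by cluster. In U251 222 genes lie at or above the dashed line, and in U87 121 do, with long uninterrupted stretches at 0.

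ZNF83, ZNF347, ZNF468, ZNF320, ZNF888 and ZNF675 were named for their fitted log2 differences between the controls, which for genes at 0 in U87 do not fix an order among them. ZNF83, which has fingers and no KRAB match, had 819, 820 and 810 counts in the U251 control libraries and 0 in each of the 6 U87 libraries. With U87 set at 3 counts over its 3 control libraries it was at least 867-fold higher in U251 (edgeR quasi-likelihood test, adjusted p = 1.94e-08). ZNF347 was at least 574-fold higher, ZNF468 at least 566-fold, ZNF320 at least 542-fold, ZNF888 at least 505-fold and ZNF675, an inhibitor of TRAF6 signalling, at least 449-fold. All 6 were at 0 in every U87 library, treated or not. Lack of overlap between groups was a condition for naming members by their change, here and below, so it adds no support. ZNF320 and ZNF468 had 99.5% and 99.2% of their 75-base words in transcripts of other genes, most often of each other. The split of reads between them is therefore uncertain, although both were at 0 in U87. Over the 82 expressed genes that had no count in U87 controls these lower bounds ran from 10.97-fold to 867-fold, with a median of 116-fold.

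The members best known for silencing retrotransposons followed the same pattern. ZNF91, which represses SVA and L1 elements, had 464, 544 and 587 counts in U251 controls and 0, 0 and 1 in U87 controls, a ratio of 1694 with a 95% exact binomial interval from 304 to 66951 (counting error only). ZNF93, a repressor of L1 elements, had 153, 182 and 197 counts in U251 controls and none in any U87 library, and was at least 188-fold higher in U251. ZNF331, a gene known to be imprinted, was at least 222-fold higher, with 215, 120 and 292 counts against 0, 0 and 0. ZNF420, a negative regulator of p53, was at least 173-fold higher, and ZNF382, described as a tumour suppressor, at least 90.98-fold. No library of U87 had a count for ZNF93, ZNF331, ZNF382 or ZNF420, so no fold after artesunate is given for them in that line.

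Other members with known roles were expressed in both lines. ZNF274, which binds the ends of other zinc finger genes and brings SETDB1 there, was 27.6 ± 2.6 CPM in U251 controls and 18.5 ± 0.54 in U87 controls (SD, n = 3), a log2 difference of 0.58 ± 0.10 (SE, edgeR adjusted p = 0.000315). Its U251 control libraries, at 25.3 to 30.4 CPM, all lay above its U87 control libraries, at 17.96 to 19.03 CPM. ZNF224, a repressor of aldolase A, was higher in U251 by 1.36 ± 0.15 on the log2 scale (adjusted p = 8.08e-06), ZNF350, a BRCA1-binding repressor, by 1.68 ± 0.46 (adjusted p = 0.00655), and ZNF45 by 0.79 ± 0.21 (adjusted p = 0.00588). ZNF175, first described as a repressor of HIV transcription in macrophages, was the exception with 13.7 ± 1.1 CPM in U251 and 28.2 ± 2.4 in U87 (log2 difference -1.04 ± 0.13, adjusted p = 2.18e-05).

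A few members were higher in U87. ZNF541, a component of a meiotic histone deacetylase complex, had no count in the 6 U251 libraries and 131, 109 and 111 in U87 controls, at least 110-fold higher in U87 (adjusted p = 1.01e-06). ZNF329 likewise had no count in U251 and 77, 71 and 42 in U87 controls, at least 59.6-fold higher in U87 (adjusted p = 1.60e-05). ZNF233 had 2, 8 and 3 counts in U251 controls and 77, 61 and 49 in U87 controls, a log2 difference of -3.72 ± 0.36, and of -4.46 without U251 control replicate 2. Smaller differences in the same direction were called for ZNF584 (-1.42 ± 0.35), ZNF404 (-1.15 ± 0.16) and ZNF787 (-1.12 ± 0.23), each with control libraries that did not overlap. The difference of ZNF787 was -0.52 after correction for GC content and length and stayed called.

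Across the 227 members, 169 were called higher in U251 controls and 15 lower by edgeR at a Benjamini-Hochberg adjusted p under 0.05, against 32.5% of the 17150 tested genes called higher and 32.3% called lower. Nothing is read from that count, nor from the members' median log2 difference of 2.26 (also 2.26 with genes at 0 set at their bounds), because 106 members entered only through U251. Among the 116 members with a mean of at least 10 counts in both lines 64 were called higher and 10 lower in U251 (55.2% and 8.62%), with a median of 0.73. Under the same restriction 31.4% of 13688 genes were called higher and 30.4% lower, with a median of 0.002. Summed over the members, U251 controls had 2899 ± 52.9 CPM and U87 controls 1248 ± 31.6 CPM (SD, n = 3). The library sums were 2851 to 2956 and 1215 to 1278. Nothing is read from the contrast of these sums either, because they include the 106 members that entered only through U251.

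Genes near zero in U87 lay side by side. Splitting the chromosome where neighbouring genes of the pattern start more than 1 Mb apart gave 16 clusters. In all, 7 runs of 5 or more consecutive pattern genes at 3 or fewer counts in U87 controls held 89 genes, 82 of them with no count, and 75 of the 96 genes that were expressed in U251 and near zero in U87. The longest by number was the run from ZNF566 to ZNF573 (chr19:36445119-37817300), with 24 genes that had no count in U87 controls and 9555 counts in U251 controls. The next, from ZNF431 to ZNF254 (chr19:21142024-24129961), had 23 genes with 8691 counts in U251 and 4 in U87, and a neighbouring run from ZNF253 to ZNF85 (chr19:19865886-20950697) had 9 genes with 1949 and 0. Between ZNF610 and ZNF816 (chr19:52336245-52962911) 15 genes had 13532 counts in U251 and 1 in U87. The runs from ZNF415 to ZNF525, from ZNF582 to ZNF835 and from ZNF433 to ZNF625 held 6, 7 and 5 genes, with 3861, 3178 and 951 counts in U251 and 3, 4 and 2 in U87.

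Some runs were flanked by genes with many counts in both lines. ZNF146, a protein made almost wholly of fingers and with no KRAB match, lies just before the run of 24 genes and had 5345 counts in U251 controls and 4435 in U87 controls. Its control libraries did not overlap, at 114.5, 112.8 and 110.2 CPM in U251 and 97.8, 78.6 and 86.6 CPM in U87. The log2 difference between the controls was 0.36 ± 0.67 and was not called (edgeR adjusted p = 0.655). The shared estimate of spread behind this SE includes the treated U87 libraries, where ZNF146 was at 190, 8.91 and 180 CPM. ZNF565, whose position overlaps that of ZNF146, had 123 and 142 counts in the controls of the 2 lines. ZNF146 and ZNF565 were the 2 of the 26 genes in their cluster that were expressed in U87. Within the ZNF101 to ZNF254 cluster of 37 genes 28 were expressed in U251 and 3 in U87, which were ZNF101 with 117, 152 and 79 counts, ZNF430 with 48, 27 and 42, and ZNF714 with 9, 10 and 11. These 5 genes were picked out after their values were seen.

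Other genes inside the 7 runs were near zero in U87 as well. Within the runs 4 protein-coding genes without the ZNF pattern were expressed in U251 controls, ZFP30 with 791 counts, HKR1 with 642, AC012309.1 with 50 and ZFP28 with 1056. Each had no count in U87 controls or after artesunate. The name pattern reads symbols alone, so zinc finger genes with other symbols fall outside it. What these 4 genes encode was not examined, so they need not be unrelated to the family. Of 28 non-coding genes within the runs that were expressed in U251 controls, 23 were near zero in U87 and 5 were expressed in both lines. AC012309.1 overlaps ZNF420 and ZNF585B, so its reads may be shared with them.

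Clusters differed in their share of genes near zero. The cluster from ZNF575 to ZNF296 (chr19:43525497-45076588) had all of its 24 genes expressed in U87 controls and 21 in U251 controls, and none near zero in U87. It summed to 194 ± 15.6 CPM in U251 controls and 134 ± 6.87 in U87 controls. The cluster from ZNF175 to ZNF331 had 37 of 39 genes expressed in U251 and 11 in U87, and sums of 614 ± 8.55 and 91.2 ± 0.293 CPM. In the last cluster, from ZNF628 to ZNF446, 55 of 59 were expressed in U251 and 44 in U87, with 746 ± 16.7 and 517 ± 5.90 CPM.

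**Figure D2:**
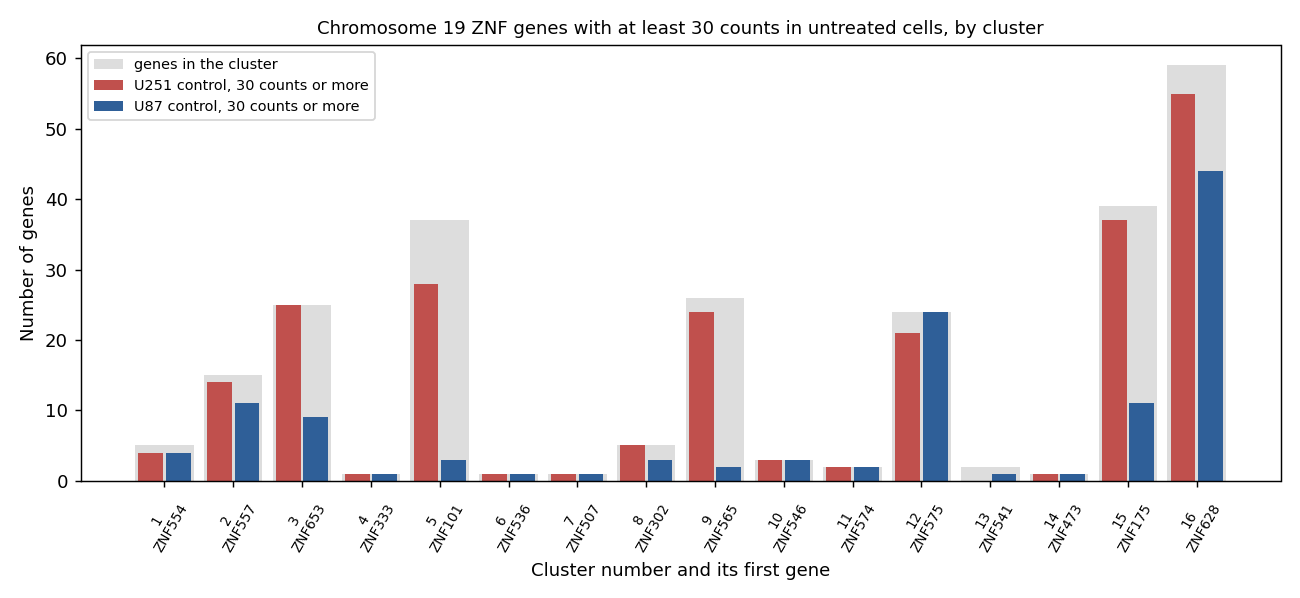
Number of chromosome 19 ZNF genes (y axis) with at least 30 counts over 3 control libraries in each of 16 clusters (x axis, with the first gene of each), for U251 (red) and U87 (blue), in front of the number of genes in the cluster (grey). The U87 bar is short in the clusters starting with ZNF653, ZNF101, ZNF565 and ZNF175 and as high as the cluster itself in the one starting with ZNF575.

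Genes near zero in U87 differed from those expressed in both lines in what they encode. Among genes expressed in U251 controls 90 of 187 with a KRAB match (48.1%) were near zero in U87, and 6 of 35 without one (17.1%). The 96 genes near zero had a median of 13.5 fingers, and the 115 expressed in both lines a median of 11. Their median transcript GC content was 40.3% against 44.1%, and their median promoter held 18 CpG (85 genes) against 21 (105 genes). They were also lower in U251 itself, with a median level of 0.758 against 1.27 FPKM, the length-corrected unit of the deposited table. These features overlap widely, with promoter CpG counts of 8 to 42 against 2 to 40.

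Genes near zero were found at every degree of sequence shared between genes. Members with at most 1% of their 75-base words in another gene numbered 139, and 59 of them were near zero in U87. The numbers were 28 of 69 at 1 to 20% and 9 of 19 above 20%. The 19 members above 20%, among them ZNF320, ZNF468, ZNF177, ZNF709, ZNF564, ZNF625 and ZNF20, have counts that the authors' counting could have split between genes. A further limit is that 93 members overlap another protein-coding gene in position, and the strand setting of the counting is not given in the sources used here.

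Per length, the most abundant member in U251 controls was ZNF146 at 13.3 ± 0.234 FPKM, followed by ZNF428 at 10.4 ± 1.74 and ZNF787 at 8.96 ± 0.139 (SD, n = 3). The spread of ZNF428 overlapped that of ZNF787. In U87 controls ZNF787 led at 19.7 ± 1.28 FPKM, followed by ZNF358 at 15.3 ± 11.3, ZNF428 at 12.9 ± 1.94, ZNF865 at 11.6 ± 0.549 and ZNF146 at 10.51 ± 1.22. ZNF358 rested on 1 library, with 9.76, 7.87 and 28.3 FPKM, so its place in this order does not stand beyond its spread. The median member was at 1.08 FPKM in U251 controls and 0.167 in U87 controls. Nothing is read from the contrast of these medians, because 106 members entered only through U251.

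Artesunate brought none of the near-zero genes of U87 up to 30 counts. Of 113 pattern genes at 3 or fewer counts in U87 controls, 107 were still there in the 3 treated libraries and 90 had no count in either group. The other 6 had 4 to 20 counts summed over the 3 treated libraries, namely ZNF20 (2 to 20), ZNF845 (3 to 9), ZNF799 (2 to 8), ZNF528 (1 to 6), ZNF154 (0 to 5) and ZNF607 (0 to 4). ZNF20 and ZNF528 were the 2 of these that were called. ZNF20, a KRAB gene, had 0, 2 and 0 counts in controls and 10, 4 and 6 after artesunate, a ratio of 11.7 with a 95% exact binomial interval from 2.85 to 104 (log2 change 3.31 ± 0.80, adjusted p = 0.00375). It shares 71.6% of its sequence with the readthrough gene ZNF625-ZNF20, and its call was lost on log2(FPKM + 1) without a filter (adjusted p = 0.564). Without U87 control replicate 2, the control library that held its 2 counts, the fitted log2 change was 5.88, and with other libraries left out it went down to 2.77. ZNF528 had 0, 1 and 0 against 1, 2 and 3 counts, a ratio of 7.04 with an interval from 0.854 to 324, and its adjusted p of 0.0488 rose above the threshold under most other settings, up to 1.

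Among the members that U87 expresses, more rose than fell after artesunate. Over all 227 members 58 rose and 24 fell, where 29.2% of all tested genes rose and 29.2% fell. The median log2 change was 0.00, which the many members without counts set. Restricted to members with a mean of at least 10 counts over the 6 U87 libraries, a restriction added after the zeros were seen, 121 were left. Of these 55 rose (45.5%) and 24 fell (19.8%), against 31.9% and 31.5% of the 15256 genes that met the same restriction. Their median log2 change was 0.59. ZNF genes elsewhere had 78 of 205 that rose and 46 that fell, with a median of 0.27. The other protein-coding genes of chromosome 19 had 23 of 687 that rose and 512 that fell, with a median of -1.10. After correction for GC content and length 143 of these 687 rose and 225 fell, with a median of -0.12. In that fit the median was 0.15 for ZNF genes elsewhere and 0.24 for the members. The summed level of all members was 1248 ± 31.6 CPM in U87 controls and 1429 ± 152 CPM after artesunate, and the library sums of 1215 to 1278 and 1262 to 1561 overlapped.

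The members that rose were mainly KRAB genes, and those that fell mainly genes without a KRAB match. Of 89 measured members with a KRAB match 50 rose and 6 fell (56.2% and 6.74%, against the 31.9% and 31.5% over all measured genes), with a median log2 change of 0.70, which became 0.31 after correction for GC content and length. Of 32 without one 5 rose and 18 fell (15.6% and 56.2%), with a median of -1.16, which became 0.05 after that correction.

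ZNF460, with a KRAB match and 11 fingers, had 4.15, 3.14 and 2.80 CPM in U87 controls and 12.3, 12.8 and 14.7 after artesunate. Every treated library lay above every control library, as the rule for naming required, and the log2 change was 1.97 ± 0.20 (adjusted p = 8.20e-06). ZNF616, with a KRAB match and 21 fingers, had 3.48, 3.81 and 3.29 CPM in controls and 11.2, 9.72 and 10.8 after artesunate, again without overlap (1.58 ± 0.13, adjusted p = 1.89e-06). ZNF181 went from 50, 61 and 24 counts to 96, 156 and 173 (1.88 ± 0.36), and ZNF222 from 2.13, 2.42 and 2.67 to 8.24, 5.92 and 9.49 CPM (1.71 ± 0.23). Both of these KRAB genes were separated between the groups. The log2 changes of ZNF181 and ZNF616 were 1.23 and 1.05 after correction for GC content and length, and both stayed called.

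ZNF441 had 4, 4 and 0 counts in controls and 21, 8 and 8 after artesunate (log2 change 2.398 ± 0.61, adjusted p = 0.00513), and its call was lost on log2(FPKM + 1) (adjusted p = 0.142). Its log2 change was 1.75 after correction for GC content and length and 1.74 without U87 artesunate replicate 1, both still called. ZNF766 went from 3.93, 8.82 and 10.3 CPM to 25.1, 17.1 and 22.8 CPM (1.501 ± 0.40), and its call was lost after correction for GC content and length (0.98, adjusted p = 0.0638). Among the members with known roles ZNF224 rose by 1.02 ± 0.15 on the log2 scale (adjusted p = 0.000128), from 7.41, 5.38 and 5.84 CPM to 13.3, 11.4 and 13.1 CPM, and its change was 0.50 after that correction. ZNF350 had a log2 change of 1.42 ± 0.46 (adjusted p = 0.0186), which was not called after the correction (adjusted p = 0.0876) or without U87 control replicate 1 (0.0730) or artesunate replicate 1 (0.0601). ZNF274 had a log2 change of 0.26 ± 0.10 (adjusted p = 0.0419), a call that most other settings lost. ZNF175 (0.18 ± 0.13, adjusted p = 0.241) and ZNF45 (0.44 ± 0.21, adjusted p = 0.0929) were not called.

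The members with the largest falls had no KRAB match. ZNF865, with 20 fingers and no KRAB match, had 47.5, 48.4 and 43.6 CPM in U87 controls and 3.65, 10.8 and 5.19 after artesunate (log2 change -2.83 ± 0.29, adjusted p = 8.34e-06). ZNF428, with 1 finger by the pattern, had 26.9, 35.5 and 35.7 CPM in controls and 4.38, 7.09 and 5.45 after artesunate (-2.53 ± 0.20, adjusted p = 1.24e-06). ZNF787, the most abundant member of untreated U87 per length, had 71.8, 82.7 and 74.7 CPM in controls and 8.82, 20.5 and 10.3 after artesunate (-2.53 ± 0.24, adjusted p = 4.99e-06). In none of these did a treated library reach a control library, as the rule for naming required. After correction for GC content and length the log2 changes were -1.19 for ZNF865, -1.46 for ZNF428 and -0.85 for ZNF787, all still called.

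ZNF536, a repressor of neuronal differentiation, went from 4.602, 4.53 and 5.66 CPM to 1.02, 0.877 and 1.28 CPM (-2.20 ± 0.18, adjusted p = 1.46e-06), with a corrected log2 change of -1.61. ZNF444, a SCAN-domain activator of the scavenger receptor gene SCARF1, went from 13.4, 15.95 and 32.3 CPM to 4.67, 6.50 and 5.13 CPM (-1.92 ± 0.40), and ZNF576 from 14.8, 17.8 and 18.4 CPM to 4.89, 6.87 and 4.81 CPM (-1.62 ± 0.16). The corrected log2 change of ZNF444 was -1.20. ZNF579 fell by 2.08 ± 0.41 on the log2 scale, and after correction for GC content and length its change of -0.54 was not called (adjusted p = 0.189). ZNF358 had 24.8, 20.3 and 71.7 CPM in controls and 0.510, 19.4 and 0.128 CPM after artesunate (-2.55 ± 1.02, adjusted p = 0.0484). That call was lost under most other settings, among them without U87 control replicate 3 (adjusted p = 0.194), and without U87 artesunate replicate 2, which alone kept a level near the controls, the log2 change was -6.95 (adjusted p = 2.21e-05).

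**Figure D3:**
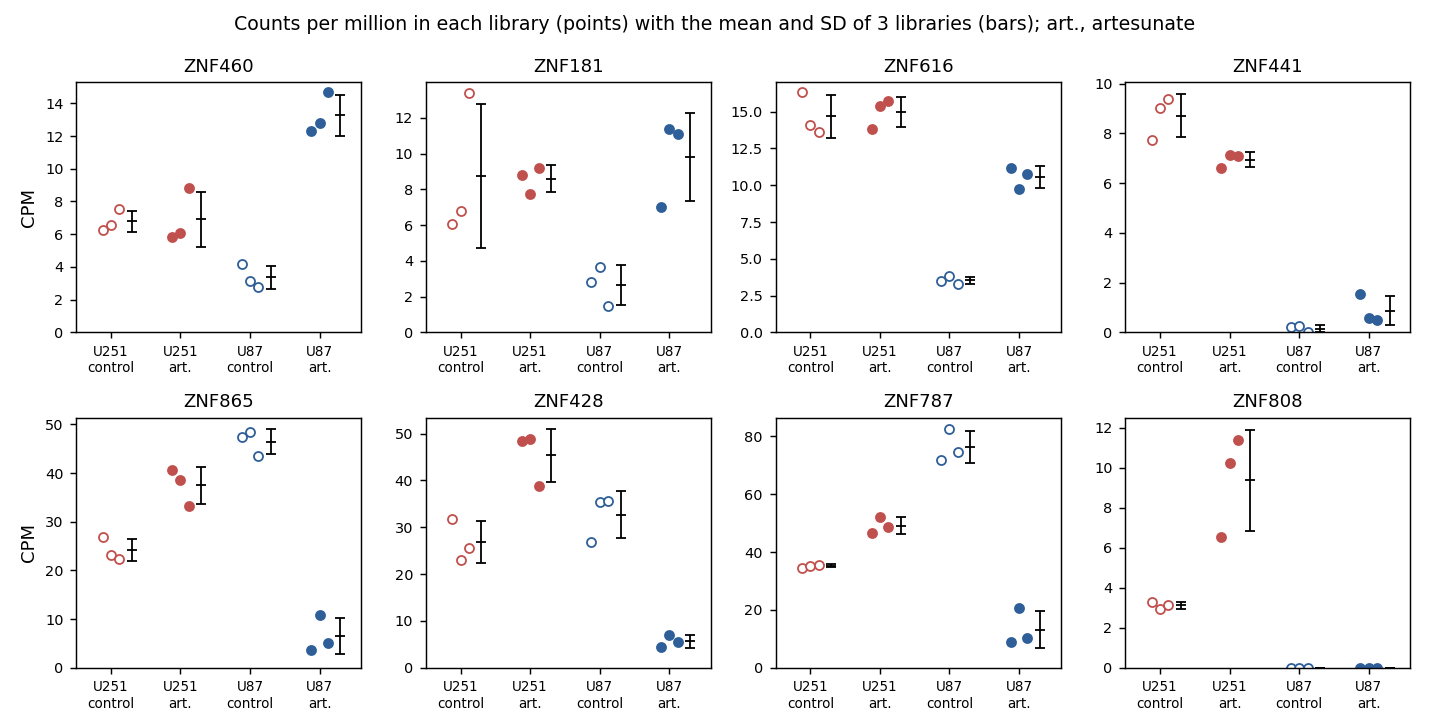
CPM (y axis, from 0) of 8 named members in each of the 12 libraries, with U251 in red, U87 in blue, controls as open and artesunate libraries as filled points, and the mean ± SD of 3 libraries beside them. ZNF460, ZNF181, ZNF616 and ZNF441 are higher and ZNF865, ZNF428 and ZNF787 lower in every treated U87 library than in any U87 control, while ZNF808 is at 0 in U87 and higher in every treated U251 library. Such separation was a condition for naming these members.

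ZNF146 overlaps ZNF565 in position, and both were measured in U87. ZNF146 had 97.8, 78.6 and 86.6 CPM in U87 controls and 190, 8.91 and 180 CPM after artesunate, so that 1 treated library lay far below the other two and below all controls, and its mean moved by 0.53 ± 0.67 on the log2 scale, short of the threshold (adjusted p = 0.523). ZNF565 rose from 2.81, 2.78 and 2.86 CPM to 5.54, 6.14 and 6.41 CPM, by 1.10 ± 0.16 on the log2 scale (adjusted p = 0.000124). In artesunate replicates 1 and 3 both genes were above all their controls, and in replicate 2 ZNF565 alone was. The library with the low value of ZNF146 is the one that kept ZNF358 near control levels. Whether these counts reflect the cells or the assignment of reads was not tested.

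The response of members in U87 varied with the GC content of their transcripts, as it did over all genes. Members with a KRAB match had a median transcript GC of 41.9% and those without one 57.1%, against 47.9% over all genes tested and 59.4% over the other protein-coding genes of chromosome 19. Of 16 measured members under 40% GC 13 rose and none fell, of 53 at 40 to 45% 30 rose and 1 fell, of 23 at 45 to 50% 9 rose and 1 fell, and of 29 at 50% or more 3 rose and 22 fell. In the same order 67.5%, 51.9%, 32.5% and 7.94% of all genes measured in U87 rose, and 4.67%, 9.34%, 18.8% and 58.5% fell. For members the shares were 81.2%, 56.6%, 39.1% and 10.3% that rose and 0%, 1.89%, 4.35% and 75.9% that fell. In each bin the share that rose was above that of all genes, while the share that fell was below it under 50% GC and above it at 50% or more, and these differences were not tested. Below 50% GC the 11 members without a KRAB match included 5 that rose and none that fell, and at 50% or more the 8 with a KRAB match included 3 that rose and 4 that fell.

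With a smooth trend on GC content and length removed from each library, 30 of the 121 measured members rose (24.8%) and 11 fell (9.09%), with a median of 0.24. In that fit 26.2% of the 15256 genes rose and 23.7% fell, so the share of members that rose was no longer above that of all genes. Members with a KRAB match then had 26 that rose and 5 that fell of 89 (29.2% and 5.62%), and members without one 4 and 6 of 32 (12.5% and 18.8%). What lies behind the relation of the counts to GC was not tested.

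**Figure D4:**
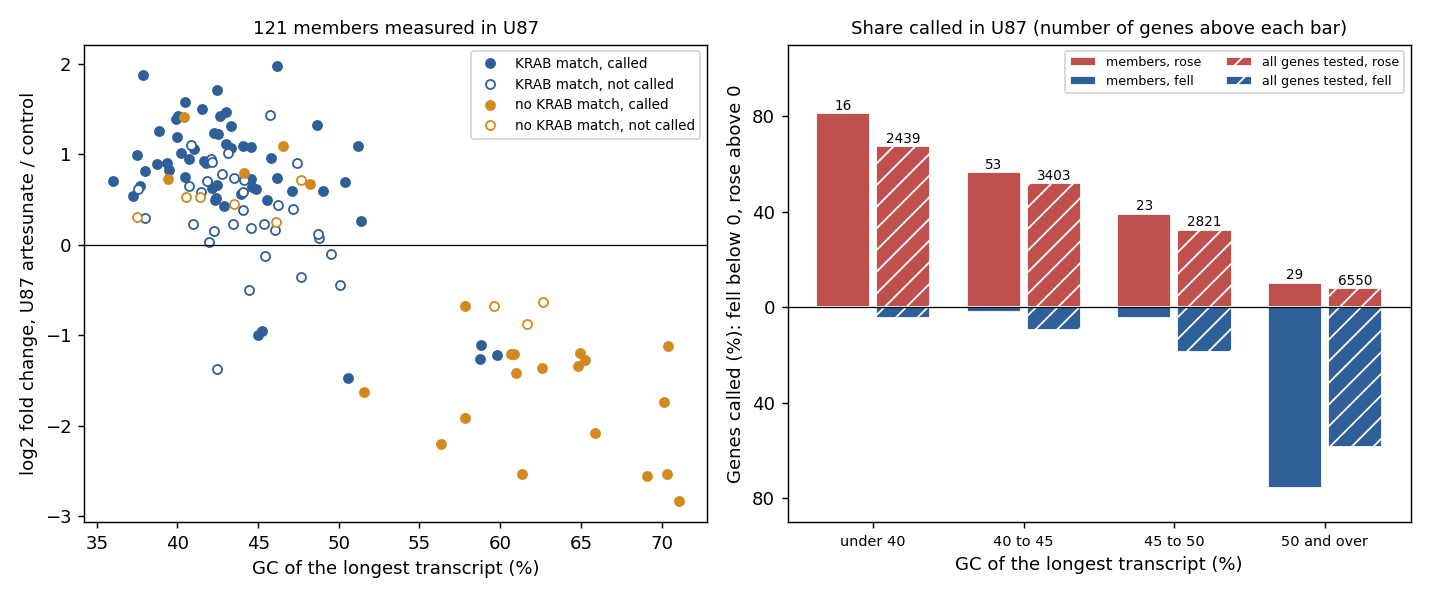
Left, log2 fold change of artesunate against control in U87 (y axis) against the GC content of the longest transcript (x axis, percent) for the 121 members measured in U87, by KRAB match and by call. Right, percent of members (plain bars) and of all genes tested (hatched bars) that rose (above 0) or fell (below 0) in 4 bins of GC content. Both kinds of bar are limited to genes measured in U87, with the number of genes above each bar. At 50% GC or more 22 of 29 members fell, and under 40% 13 of 16 rose.

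In U251 artesunate changed few members. By edgeR 4 rose and 3 fell of 227, against 4.09% and 4.26% of all genes tested, and the median log2 change was -0.04. These counts rested on single libraries: without U251 control replicate 2 1 member rose and none fell, without control replicate 3 2 rose and 1 fell, and without artesunate replicate 1 2 rose and none fell. None fell without U251 control replicate 1 or artesunate replicate 2, and 7 rose without U87 artesunate replicate 2, which enters through the shared estimate of spread. ZNF808, a KRAB gene required for pancreas development, had 3.31, 2.92 and 3.13 CPM in controls and 6.53, 10.2 and 11.4 after artesunate, without overlap (1.59 ± 0.25, adjusted p = 0.0104). Its adjusted p was 0.0560 without U251 control replicate 2 and 0.0517 without control replicate 3. ZNF808 lies in the run of 15 genes from ZNF610 to ZNF816 and had no count in any U87 library.

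The other 3 that rose had smaller changes. ZNF428 rose by 0.76 ± 0.18 (adjusted p = 0.0272), from 31.8, 23.1 and 25.6 CPM to 48.4, 48.9 and 38.9 CPM, ZNF548 by 0.72 ± 0.15 (adjusted p = 0.0153) and ZNF224 by 0.64 ± 0.14 (adjusted p = 0.0209), each without overlap between groups. The call of ZNF428 was lost without control replicate 2 (adjusted p = 0.114), control replicate 3 (0.110), artesunate replicate 1 (0.105) or artesunate replicate 2 (0.105). That of ZNF548 was lost without artesunate replicate 2 (0.0682), and that of ZNF224 without control replicate 1 (0.0695), control replicate 2 (0.0833) or artesunate replicate 1 (0.0951).

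ZNF93 fell by 0.67 ± 0.17, from 10.1, 11.1 and 12.3 CPM to 6.96, 7.14 and 6.98 CPM, with an adjusted p of 0.04995 at the threshold itself. ZNF850, with 29 fingers, fell by 0.64 ± 0.15 (adjusted p = 0.0447). Both calls were lost when any 1 of the 6 U251 libraries was left out (adjusted p from 0.0972 to 0.174 for ZNF93 and from 0.104 to 0.149 for ZNF850) and under the correction for GC content and length (adjusted p = 0.107 for ZNF93 and 0.0526 for ZNF850). ZNF665, outside the rule for named members and named after its values were seen, had 25, 25 and 24 counts in controls and 9, 9 and 8 after artesunate (-1.45 ± 0.31, adjusted p = 0.0321). For ZNF91 the log2 change was -0.41 ± 0.20, short of the threshold (adjusted p = 0.255). Nor were ZNF331, ZNF382, ZNF420, ZNF274, ZNF350, ZNF175 and ZNF45, whose log2 changes ran from -0.36 to 0.25.

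The difference between the 2 artesunate responses was tested directly, and it shares its libraries with the tests in each line. It was called for 60 members, 20 with a higher change in U251 (8.81%) and 40 with a lower one (17.6%), against 24.1% and 25.3% of all genes. Many members had almost no counts in U87. With a mean of at least 10 counts in both lines the shares were 17.2% and 31.9% of 116 members. Under the same restriction they were 28.2% and 30.3% of 13688 genes. The 20 were all members that fell in U87, and 38 of the 40 were members that rose in U87, while 1 of the 60 was itself called in U251. ZNF865 had the largest higher difference, 3.46 ± 0.39 on the log2 scale (adjusted p = 3.67e-05), with U251 libraries of 26.8, 23.3 and 22.4 CPM in controls and 40.5, 38.6 and 33.3 after artesunate. ZNF428 (3.29 ± 0.27), ZNF787 (3.01 ± 0.33) and ZNF444 (2.68 ± 0.54) followed. ZNF766 differed by -2.36 ± 0.57 (adjusted p = 0.00476), with 13.8, 15.3 and 17.28 CPM in U251 controls and 5.17, 5.62 and 14.8 after artesunate. Without U251 artesunate replicate 3, the highest of these, the difference was -3.02. After correction for GC content and length 10 members were higher and 15 lower, and ZNF865 was at 1.45, ZNF428 at 1.99, ZNF787 at 0.99 and ZNF444 at 1.74, all still called.

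The partners through which KRAB proteins act were present in both lines. Of a list of 32 corepressor and histone H3 lysine 9 genes 31 were tested, and ZFP57 was left out for lack of counts. Between the controls 10 were higher and 8 lower in U251, with a median log2 difference of 0.06, where 32.5% of all genes were higher and 32.3% lower. TRIM28, the corepressor itself, was 328 ± 6.5 CPM in U251 controls and 370 ± 26 in U87 controls, a log2 difference of -0.17 ± 0.14 that was not called (adjusted p = 0.319). SETDB1 was 28.98 ± 1.5 and 25.2 ± 1.9 CPM and was not called either. KDM4C, a histone H3 lysine 9 demethylase, was higher in U251 by 1.49 ± 0.09, HDAC1 by 1.19 ± 0.07 and MPHOSPH8, a reader of the methylated mark, by 1.19 ± 0.18, while MTA1 was lower, with a log2 difference of -1.46 ± 0.13.

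After artesunate 8 of the 31 rose and 13 fell in U87, where 29.2% of all genes rose and 29.2% fell, and 2 rose and 5 fell in U251, where 4.09% rose and 4.26% fell. The maintenance DNA methylation gene UHRF1 fell in both lines, by 2.93 ± 0.19 on the log2 scale in U87 (adjusted p = 2.74e-07) and by 0.66 ± 0.17 in U251 (adjusted p = 0.0380), and the difference between the lines was called (2.27 ± 0.25). DNMT1, which copies DNA methylation, fell by 1.75 ± 0.10 in U87 and by a non-called 0.14 ± 0.10 in U251. TRIM28 had a log2 change of -1.11 ± 0.15 in U87 (adjusted p = 5.02e-05), and after correction for GC content and length the call had the opposite direction, with a log2 change of 0.27 (adjusted p = 0.0189). MORC3 rose by 1.51 ± 0.11 and KDM4A by 1.16 ± 0.07 in U87. KDM4B rose by 1.06 ± 0.14 in U251, and its U87 change of -0.90 ± 0.14 turned to 0.16 under that correction. Whether these changes bear on the members was not tested.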

How the data were processed

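Polyadenylated RNA of 12 libraries was measured, 3 in each of 4 groups set by the labels. The deposited table holds whole-number counts per gene that the authors did not normalise, together with FPKM, which the authors derived following TMM scaling according to the series text. Per the submitters' processing notes the reads passed through fastp, HISAT2 2.1.0, StringTie 1.3.3b and edgeR 3.30.3, and the series text names GRCh38. How StringTie output became whole counts, and whether strand was used, is not given in the sources used here. Reads of overlapping or near-identical genes may therefore be shared between them.

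The counts were fitted with edgeR 4.0.16 in R 4.3.3 (quasi-likelihood test, TMM factors, 4 groups with 1 shared estimate of spread). Of 35237 genes with a count 17150 passed edgeR's expression filter (minimum count 10, minimum total 15), all 227 members among them, and the common biological coefficient of variation was 0.183. P-values were adjusted by the Benjamini-Hochberg method over all 17150 genes and called under 0.05. Values after ± are SD over 3 libraries for levels and SE for log2 changes. Library totals of 13631985 to 17314284 counts put 3 counts over a group at 0.0594 CPM in U87 controls and 0.0631 in U251 controls. Intervals and this floor cover counting error only. The fit was also run on simulated counts with the same spread for every gene. Those counts lack the gene-specific spread and the GC trend of these data, and nothing is read from that run here.

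Transcript GC content, length, KRAB and finger patterns and shared 75-base words came from GENCODE release 29, and promoters from RefSeq. Positions of 222 members were the same in the table and in GENCODE. The alternatives were total counts, no count filter, limma-trend 3.58.1 on log2(FPKM + 1) or log2(FPKM + 0.1), only the groups compared, a replicate block, a GC and length correction (a spline per library), leaving out each library, DESeq2 1.42.0, and a stricter minimum.

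The members and lists were chosen with earlier results of these data known. Named members were called, did not overlap between the groups compared and had a mean of at least 30 counts over 12 libraries. The largest log2 changes were taken, up to 8 per direction for artesunate in each line, 6 between the controls and 4 for the difference. In addition 10 members with known roles were named whatever their result. Figures were drawn with matplotlib 3.10.9 in Python 3.11.15.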

Additional observations from a re-analysis of the deposited data

Results flagged for a closer look

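The artesunate responses of the 2 lines differed, by a test of the difference itself, for 20 members with a higher and 40 with a lower change in U251 (edgeR quasi-likelihood test, Benjamini-Hochberg adjusted p under 0.05). These were 8.81% and 17.6% of the members, where 24.1% of all genes tested were higher and 25.3% lower. Among genes with a mean of at least 10 counts in both lines 17.2% and 31.9% of members were called, against 28.2% and 30.3% of all. With the GC and length correction 10 members were higher and 15 lower. Among the members named for it, the log2 difference, U251 minus U87, was 3.463 for ZNF865, 3.294 for ZNF428, 3.015 for ZNF787 and 2.676 for ZNF444. All 4 had fallen in U87, and ZNF428 had risen in U251. In the other direction it was -3.451 for ZNF20 (adjusted p = 0.00607), -2.724 for ZNF441 (adjusted p = 0.00661), -2.616 for ZNF528 (adjusted p = 0.0375) and -2.356 for ZNF766 (adjusted p = 0.00476). ZNF350 differed by -1.782 (adjusted p = 0.0333), a call that 14 of the other settings lost, with adjusted p-values from 0.0122 to 0.266. Over the other settings the highest adjusted p was 0.430 for ZNF20, 0.0618 for ZNF441, 0.369 for ZNF528 and 0.0354 for ZNF766. With 1 library left out the ZNF20 difference ran from -6.02, without U87 control replicate 2, to -2.91. ZNF20 and ZNF528 rest on 20 and 6 counts over the 3 treated U87 libraries. The U251 and U87 doses were 180 and 24.08 µM, so that line and dose cannot be told apart.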

How the results depend on the processing

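The labels do not say that a replicate number pairs samples. Same-numbered control and artesunate libraries deviated together with r of 0.041, 0.00015 and 0.038 in U251 and 0.053, 0.050 and -0.0086 in U87. Differently numbered ones had r from -0.056 to 0.019 in U251 and from -0.085 to 0.044 in U87. Deviations from means of 3 libraries cannot decide whether samples were paired. With the replicate block 1 member fell in U251, against 3 without it, and the other counts of members stayed within 1.5 times. The U251 count of members that fell was 0 with no filter on low counts, 10 on log2(FPKM + 1), 12 on that scale with no filter, 13 with only the groups compared (10 rose), 1 with the GC and length correction, 0 with that correction and the block, and 10 with DESeq2. In U87 32 members rose and 11 fell with the correction, and 29 and 10 with the block too. Among members measured in U87 these were 30 and 11, and 26 and 10. The U87 median was 0.56 with only the groups compared, where members without counts in U87 were not tested. For the difference 10 members were higher and 15 lower with the correction (median -0.060), and 9 and 11 with the block too (median -0.067). Its median was -0.17 on log2(FPKM + 1) and -0.091 with no filter. Between the controls 95 members were higher on log2(FPKM + 1) and 95 on log2(FPKM + 0.1), with medians of 0.57 and 1.07. The median was 0.49 on log2(FPKM + 1) with no filter, 1.95 with the correction, 1.99 with the block too and 1.70 for the 196 members with a mean of at least 30 counts. Where no reason is given, the cause was not tested.

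With each library left out in turn, the U251 counts ran from 1 to 7 for rises and 0 to 4 for falls (median -0.06 to -0.01), the U87 counts from 48 to 59 and 22 to 26, and those measured in U87 from 46 to 55 and 22 to 25. The difference had 16 to 21 higher and 34 to 49 lower (median -0.37 to -0.28), and the controls 162 to 175 and 11 to 18 (median 2.12 to 2.45). Leaving out 1 of 3 libraries keeps 2 in that group.

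Over the 70 results for single members 15 values changed sign, none of them called in the report. The ZNF274 difference was 0.023 with no filter, 0.011 on log2(FPKM + 1) with or without a filter, 0.020 without U251 control replicate 3 and 0.0093 without U87 artesunate replicate 3. The ZNF224 difference was 0.31 with the correction and 0.30 with the block too. ZNF420 in U251 was 0.019 and 0.011, ZNF175 in U87 -0.16 and -0.16, and the ZNF175 difference 0.10 and 0.10. ZNF331 in U251 was -0.053 without U251 control replicate 2, and ZNF45 in U251 -0.069 without U251 artesunate replicate 3. With single libraries left out these 3 ran from -0.093 to 0.020, from -0.053 to 0.54 and from -0.069 to 0.37. Of the other values 1362 kept direction and side of the threshold, 124 lost a call and 2 gained one.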

Other observations

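Levels were summed by cluster over all genes of the name pattern, members or not. The cluster from ZNF175 to ZNF331 was at 91.2 ± 0.293 CPM in U87 controls and 170 ± 16.9 after artesunate (SD, n = 3). The cluster from ZNF653 to ZNF791 was at 61.9 ± 9.97 and 120 ± 16.5 CPM in the same groups. The cluster from ZNF628 to ZNF446 was at 517 ± 5.90 and 431 ± 4.56 CPM in U87, and at 746 ± 16.7 and 827 ± 1.69 CPM in U251. The cluster from ZNF101 to ZNF254 was at 273 ± 15.1 CPM in U251 controls and 205 ± 22.3 after artesunate. The cluster from ZNF565 to ZNF573 was at 90.4 ± 9.65 CPM in U87 controls and 133 ± 102 after artesunate, where ZNF146 made up nearly all of the sum and of its spread. These sums were not tested.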
